A study of Homo sapiens with 4 samples.

Results

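The 8 genes ACTB, ACTG1, EEF1A1, EEF2, FTL, FTH1, GAPDH and TPT1 were examined in ChIP-seq of K562 cells, out of 20037 protein-coding genes on the assembled chromosomes. They were chosen by name, as genes of abundant messenger RNAs, with their pileup, fold enrichment and peak places in these same libraries already known, so these values are given as a description. No RNA was measured in these libraries, so the abundance itself was not checked here. K562 is an established human cell line derived from chronic myeloid leukemia. The cells overexpressed HA-tagged PHF6, a chromatin-associated PHD finger protein, or HA alone as control, were otherwise untreated, and their cross-linked chromatin was precipitated with an HA antibody. Of the 4 libraries, 2 are ChIP libraries with a peak list each and 2 are their inputs, which enter through the peak calls. The titles name the pairs only HA and WT and do not settle which pair held HA-PHF6, so the libraries are called by these labels. Each condition had 1 ChIP library, and no difference between them could be set against a spread between replicates.

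The 8 genes make proteins that nearly every cell needs in quantity. ACTB and ACTG1 encode the cytoplasmic β- and γ-actin of the cytoskeleton, EEF1A1 brings aminoacyl-tRNA to the ribosome, and EEF2 moves the ribosome along the messenger RNA. FTL and FTH1 encode the light and heavy chains of ferritin, the iron storage protein, whose translation is held back by iron regulatory proteins when iron is low. GAPDH is a glycolytic enzyme, and TPT1 encodes the translationally controlled tumor protein. Genes of the translation machinery commonly begin with a 5′ terminal oligopyrimidine tract, a run of C and T from a first C, through which growth signals set their translation.

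The sequences below show where transcription starts in the members for which a start was given. The place of a peak was measured from the start of the annotated gene range, which is the same base in all of these but GAPDH. They are from RefSeq on GRCh38.p14, 5′ to 3′ on the strand of the gene, from 15 bases before the start to 15 bases after it. Capitals mark the unbroken run of C and T from the first base where that base is C. ACTB and FTH1 were not in the table used.
EEF1A1: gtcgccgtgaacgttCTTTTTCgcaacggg
EEF2: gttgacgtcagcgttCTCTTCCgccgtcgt
TPT1: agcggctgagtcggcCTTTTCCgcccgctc
ACTG1: gaggccgcggtcggtCTCagtcgccgctgc
FTL: tagccacgtcccctcgcagttcggcggtcc
GAPDH: agcgggtgcatccctgtccggatgctgcgc
In this order they lie at chr6:73521018-73521047, chr19:3985449-3985478, chr13:45341169-45341198 and chr17:81512785-81512814 on the minus strand, and at chr19:48965294-48965323 and chr12:6535249-6535278 on the plus strand. EEF1A1, EEF2 and TPT1 had a run of 7 pyrimidines. A C followed by at least 4 more pyrimidines, read on the sense strand, opened 4.07% of the 35116 starts in the table. The start given for GAPDH lay 747 bp inside its annotated range.

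In the ChIP labelled WT, 5 of the 8 genes held 1 peak each, ACTB, ACTG1, EEF1A1, EEF2 and FTL, and FTH1, GAPDH and TPT1 held none. In the ChIP labelled HA, 0 of the 8 held a peak. A gene was said to hold a peak where they shared at least 1 bp. Of 5406 protein-coding genes up to the 9408 bp of EEF2, the longest member, and with the members included, 1.48% held a peak in the ChIP labelled WT (95% Wilson confidence interval 1.19% to 1.84%) and 3.66% in the ChIP labelled HA (3.19% to 4.2%). A peak in the ChIP labelled WT and none in the ChIP labelled HA was found at 1.37% of these genes, and a peak in both at 0.111%. The genes had been picked with these peaks in view, so the members' count carries no weight as a test against these shares. The intervals cover counting error only.

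FTL had the strongest peak. It lay at chr19:48965357-48965596, a length of 240 bp, in a gene that spans chr19:48965309-48966879. At its summit 30 ChIP tags (sequenced fragments, extended to the fragment length) piled up over a local background of 6.36 tags, which the peak caller takes from the input. The fold enrichment, pileup over background with 1 added to both, was 4.21, and the −log10 q was 6.60, where q is the p-value after adjustment for multiple testing by the peak caller. The file header states that q-values would not be calculated, although the column is filled, and they were used as deposited. FTL was the only member with a q-value under 0.05, a limit passed at 0.129% of the genes up to 9408 bp. Of the 69 other genes in that size range with a peak in the ChIP labelled WT alone, 4 had a higher fold enrichment and 2 a higher pileup.

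The actin genes followed in pileup. ACTB also had 30 tags at its summit, in a peak at chr7:5528337-5528656 within a gene at chr7:5527148-5530601. Its local background was 13.6 tags, however, so that the fold enrichment came to 2.12 and the −log10 q to 0.431. ACTG1, at chr17:81509971-81512799, had 17 tags over a background of 5.94 tags in a peak at chr17:81511347-81511595. The fold enrichment there was 2.60 and the −log10 q 0.313. ACTB and FTL thus had equal pileups, and their fold enrichments differed by the background.

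The elongation factor genes had lower pileups. EEF1A1, at chr6:73515750-73521032, had 12 tags over 5.19 in a peak at chr6:73519383-73519681. Its fold enrichment of 2.1 and −log10 q of 0, a q-value of 1, were the weakest of the 5, and 12 tags was exactly the fewest that could pass the p-value limit of 0.005 over this background. EEF2, at chr19:3976056-3985463, had 11 tags over 2.65 in a peak at chr19:3977865-3978125. There the −log10 q was 0.536 and the fold enrichment 3.29.

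**Figure D1:**
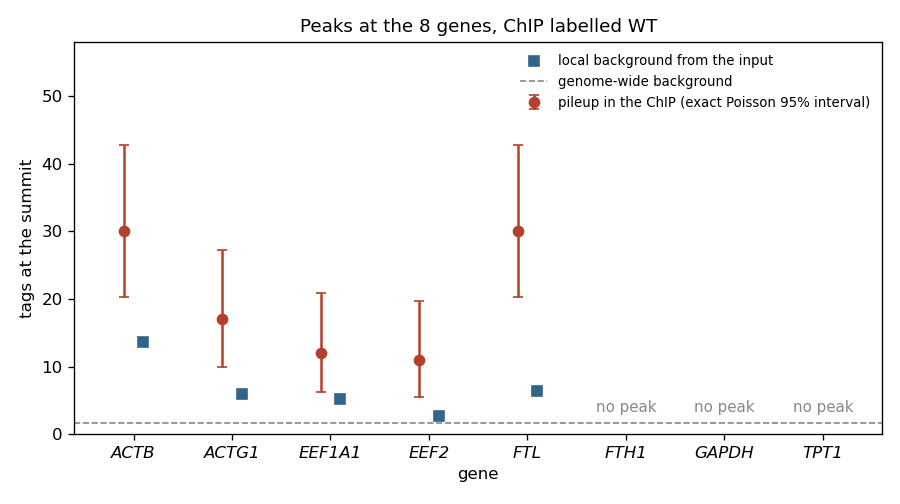
Tags at the summit (y axis) for the 8 genes (x axis) in the ChIP labelled WT, with the pileup and its exact Poisson 95% interval as circles, the local background as squares and the genome-wide background of 1.68 tags as a dashed line. ACTB and FTL share a pileup of 30 tags, but the background is 13.6 tags at ACTB and 6.36 at FTL, and 3 genes have no peak.

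By fold enrichment the order was FTL, EEF2, ACTG1, ACTB and EEF1A1. Exact Poisson 95% intervals on the pileup, with the background held fixed, gave folds of 2.89 to 5.95 at FTL and 1.78 to 5.67 at EEF2. They gave 1.57 to 4.07 at ACTG1, 1.46 to 3.0 at ACTB and 1.16 to 3.55 at EEF1A1. All 5 intervals overlapped each other, those of neighbours in this order included, and the differences between the genes were not tested. The order by pileup was different, with ACTB and FTL level at 30 tags (20.2 to 42.8), then ACTG1 (9.90 to 27.2), EEF1A1 (6.20 to 21) and EEF2 (5.49 to 19.7). Only the intervals of EEF2 lay wholly below those of ACTB and FTL.

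The counted peaks lay wholly within their genes. Since a peak had to overlap a gene to be counted, peaks wholly before a start or after an end were left out by the rule. The summit at FTL was 161 bp after the start and 1409 bp before the end, which counts as promoter under the rule used (1 kb before to 500 bp after the start). The peak began 48 bp after the start, so none of it lay upstream of the annotated gene. It took in the last 2 bases of the following stretch, chr19:48965329-48965358 on the plus strand, bases 21 to 50 of the gene, in which capitals mark the loop letters of the iron-responsive element, the hairpin that iron regulatory proteins bind in ferritin messenger RNA.
FTL: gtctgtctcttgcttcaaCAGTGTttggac
The letters CAGTGT, read on the sense strand, stand within the first 50 bases of 1.24% of the starts in the table. This loop ends 5′ of the peak, and the summit lies further into the gene.

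At the other 4 genes the summit was in the body. ACTG1 had it 1318 bp after the start, 46.6% of the way along the gene, and EEF1A1 1500 bp after the start, 28.4% of the way along. EEF2 had it far into the gene, 7454 bp after the start and 1953 bp before the end, at 79.2% of its length. For ACTB no strand was given in the table. Its summit was 1350 bp from the lower and 2103 bp from the upper annotated end, and so in the body on either strand. None of the 5 summits was at the end of a gene (500 bp before to 1 kb after it), and the terminal oligopyrimidine starts of EEF1A1 and EEF2 were not within their peaks. No other annotated gene overlapped any of the 5 peaks. Exons and introns were not analysed here. Whether this spread of places differs from that of other genes was not tested, since a strand was given for 74.7% of the peaks at genes up to 9408 bp, under the 80% set as the least for such a check.

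**Figure D2:**
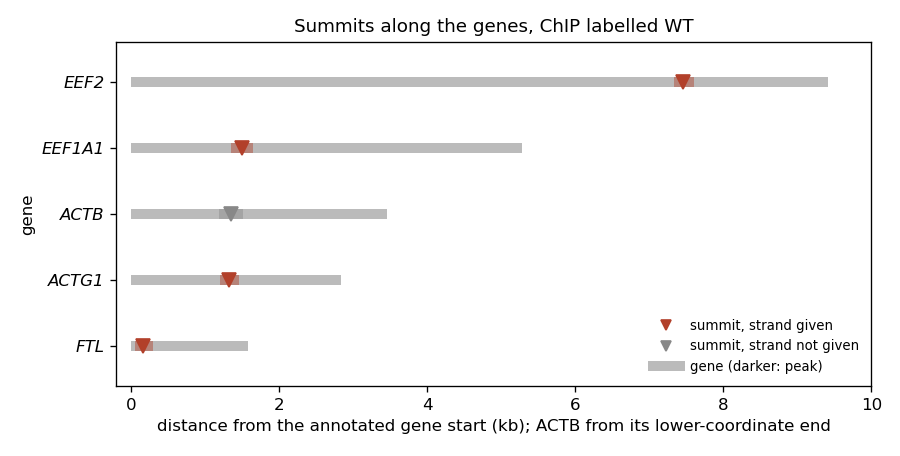
Place of the peak (darker stretch) and its summit (triangle) along each of the 5 genes with a peak in the ChIP labelled WT, in kb from the annotated start (x axis), with ACTB, whose strand was not given, drawn from its lower-coordinate end. The summit lies 161 bp from the start in FTL and within the body in the other genes.

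The backgrounds were high at most of the genes with a peak, and none is given for the genes without one. The genome-wide background in the ChIP labelled WT was 1.68 tags, and the local background was 8.09 times that at ACTB, 3.79 times at FTL, 3.53 times at ACTG1, 3.09 times at EEF1A1 and 1.58 times at EEF2. It was more than 3 times the genome-wide level at 4 of the 5 genes. The same held for 11 of the 82 peaks at genes up to 9408 bp (13.4%), which include these 4, and for 8.82% of all 6874 peaks in the list. No other gene in this size range with a peak in the ChIP labelled WT alone had a background above that of ACTB. Of these 69 genes, 2 had one above that of FTL, 2 above ACTG1, 5 above EEF1A1 and 23 above EEF2. The median background of the 5 peaks was 5.94 tags, against 2.22 tags for the 82, while the median fold enrichment was 2.60 against 2.79. The median pileup was 17 against 9 tags, and a higher background raises the pileup needed for a peak.

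The input library itself held these tags. The peak caller takes as background the largest of 4 estimates, the genome-wide level and the input over the fragment length, over 1 kb and over 10 kb, each scaled to the ChIP library. Every background in both lists was the genome-wide level or a whole number of input tags on one of these scales (tolerance 0.01 tags). At ACTB the background equalled 15 input tags on the summit itself, where 1.85 would follow from the genome-wide density. At FTL it equalled 30 input tags in 1 kb and at ACTG1 28, against 7.93 from the genome-wide density, although the same numbers per bp over 10 kb cannot be told apart from these. At EEF1A1 it equalled 245 input tags in 10 kb and at EEF2 125, against 79.3. So the largest estimate was the one at the summit in ACTB and the one over 10 kb in EEF1A1 and EEF2. The smaller estimates are not given, so whether input was also raised around the summit of ACTB was not measured. The number of copies of these regions in K562 cells was not measured here, and its part in the background was not tested.

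**Figure D3:**
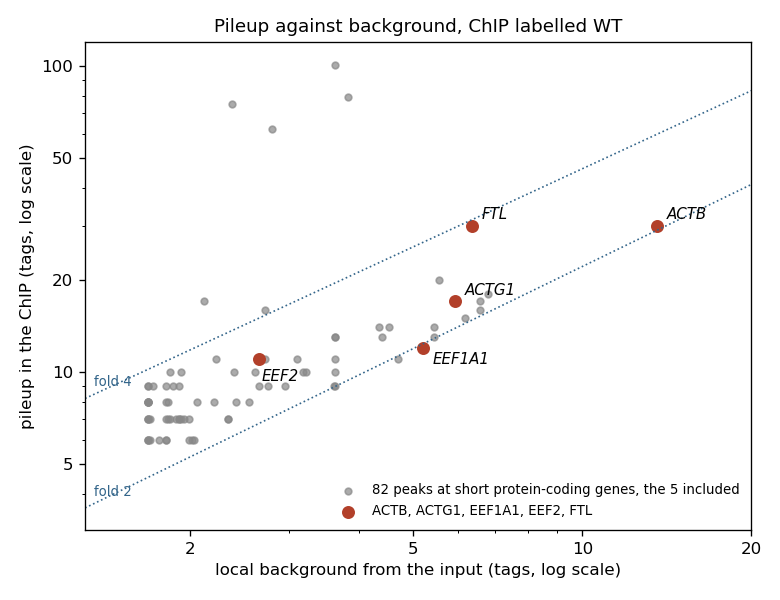
Pileup in the ChIP (y axis, log scale) against local background (x axis, log scale) for the 82 peaks of the ChIP labelled WT at protein-coding genes of up to 9408 bp, with the 5 genes in red and dotted lines at fold enrichments of 2 and 4. ACTB lies farthest to the right, at 13.6 tags of background, and FTL is the only red point above the line of fold 4.

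The ChIP labelled HA had no peak at any of the 8 genes, nor within 5 kb of them. Its nearest peak to ACTB was 12.7 kb from the gene, with 11 tags and a fold enrichment of 5.31, and its nearest to ACTG1 22017 bp away. The nearest to the others were 33.1 kb from EEF2, 51.4 kb from TPT1, 65.2 kb from FTL, 79.7 kb from FTH1, 91.7 kb from GAPDH and 140 kb from EEF1A1. The peak near ACTB stood over a background of 1.26 tags, close to the genome-wide 1.05 tags of that library. The background on ACTB itself is not given in a list without a peak there.

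This library was smaller, with 16132466 ChIP tags against 22257947, and its tags were extended to a shorter length, 201 bp and not 234 bp. The same pileup would therefore reach 0.623 of its height. If pileup and background at each place were scaled by this, 18.7 tags would be expected at FTL (exact Poisson 95% interval 12.6 to 26.7), where 10 tags suffice to pass the p-value limit. At ACTB 18.7 tags would be expected and 17 needed, at ACTG1 10.6 (6.17 to 16.9) and 9, and at EEF2 6.85 (3.42 to 12.3) and 6. At EEF1A1 7.47 tags (3.86 to 13.1) would be expected where 9 are needed. Only at FTL did the interval lie above the number needed. At ACTB, ACTG1 and EEF2 the expected tags also exceeded the number needed, but the interval extended below it. The interval covers the counting error of the ChIP labelled WT and not that of a second library. The scaling assumes that the input labelled HA had the same local excess. The places were also taken for their peaks in the ChIP labelled WT, a choice that favours high pileups there. The scaled tags and their intervals, that of FTL included, may therefore be too high. For these reasons the part of depth in the missing peaks was not tested. With 1 library of each kind, the labels and the libraries cannot be told apart.

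**Figure D4:**
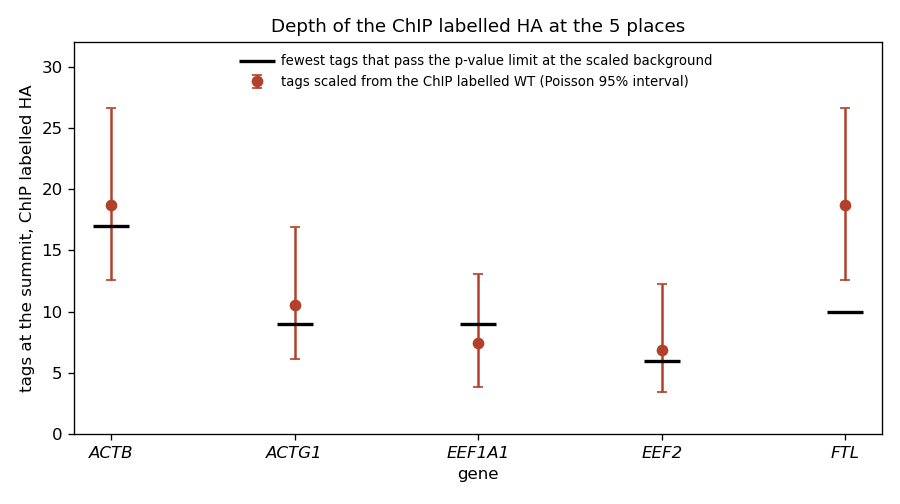
Tags expected at the summit in the ChIP labelled HA (y axis) when the pileup of the ChIP labelled WT is scaled to its depth and fragment length (circles, Poisson 95% interval), and the fewest tags that would pass the p-value limit (black bars), for the 5 genes (x axis). The interval clears the bar at FTL, from 12.6 tags against 10, and spans it at the other 4.

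FTH1, the partner of FTL, GAPDH and TPT1 held no peak in either list. In the ChIP labelled WT the nearest peaks were 188 kb from FTH1, 100 kb from GAPDH and 786 kb from TPT1. At the genome-wide background 6 tags would have passed the p-value limit in that library and 4 in the ChIP labelled HA, with more needed over a raised background. A missing peak says only that none was listed, and the tags within such a gene are not given. The reads were restricted to those that map to 1 place, and 7 of the 8 genes have annotated pseudogenes. The annotation held 211 of them named after the members, 65 of GAPDH, 50 of EEF1A1, 27 of FTH1, 21 of ACTG1, 20 of FTL, 14 of ACTB and 14 of TPT1, and none named after EEF2. How many reads were lost to such copies was not measured, and the values at these 7 genes are uncertain in this respect.

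Of the 211 pseudogenes, 1 held a peak in the ChIP labelled WT and 2 in the ChIP labelled HA, 0.474% and 0.948%, against 0.608% and 0.821% of all 16448 pseudogenes up to 30179 bp, the length of the longest of the 211 (their median is 1178 bp). The 1 in the ChIP labelled WT was FTLP3, a copy of FTL at chr20:4023718-4024588. Its 25 tags stood over 6.34 tags of background, for a fold enrichment of 3.54 and −log10 q of 3.55, beside 30 tags over 6.36 at FTL. The pair in the ChIP labelled HA was EEF1A1P3, with 5 tags, and FTLP10, with peaks of 4 and 5 tags. These had backgrounds at the genome-wide level and a −log10 q of 0.

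The counts for lists of related genes stand beside peaks at 8.58% (WT) and 18% (HA) of all protein-coding genes. Of 23 other actins and actin-binding proteins, 1 held a peak in the ChIP labelled WT and 2 in the ChIP labelled HA. GSN, which severs actin filaments, had 2 peaks of 12 tags in the ChIP labelled WT (fold 3.50 and 4.14), and the muscle actins ACTA2 and ACTC1 had peaks of 7 and 6 tags in the ChIP labelled HA. Of 16 other translation factors, 0 held a peak in the ChIP labelled WT (95% Wilson confidence interval up to 19.4%) and 3 in the ChIP labelled HA. These were EEF1A2, the tissue-restricted paralog of EEF1A1, EEF1E1, which belongs to a synthetase complex, and EEF2K, the kinase that inhibits EEF2, with 6 or 7 tags each. The actin list had a median fold enrichment of 3.82 in the ChIP labelled WT and 3.13 in the ChIP labelled HA, and the translation factor list 3.34 in the latter, beside 2.84 and 2.93 over all peaks. In this order the list medians rest on 2, 2 and 3 peaks, the first 2 both at GSN, too few to be read as a difference.

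Of 12 other genes of iron handling, 1 held a peak in the ChIP labelled WT and 3 in the ChIP labelled HA. The former was TFRC, the transferrin receptor, with 8 tags and a fold of 2.70. The latter were ACO1 and IREB2, which encode the iron regulatory proteins, with 5 and 6 tags, and PCBP1, which delivers iron to ferritin. The PCBP1 peak had 12 tags over a background of 3.49 tags, 3.33 times the genome-wide level, with its summit 174 bp after the start and a −log10 q of 0.225. Of 17 other glycolysis genes, 1 held a peak in the ChIP labelled WT, the testis form GAPDHS (10 tags, fold 4.10, summit 64 bp after the start), and 4 in the ChIP labelled HA, HK1, LDHA, PFKM and PFKL, with 5 to 8 tags. The medians in the ChIP labelled HA were 2.91 for the iron list and 2.99 for glycolysis.

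Of 30 other genes of abundant messenger RNAs, 2 held a peak in the ChIP labelled WT and 1 in the ChIP labelled HA. HNRNPA1, an RNA-binding protein that acts in splicing, had 20 tags over 5.55 in the ChIP labelled WT, and H3-3B, one of the genes of histone H3.3, had 14 tags over 4.35. These backgrounds were 3.31 and 2.59 times the genome-wide level. H3-3A, the other H3.3 gene, had 2 peaks of 8 and 10 tags in the ChIP labelled HA. Over all 98 genes of the 5 lists, 5 (5.10%) held a peak in the ChIP labelled WT and 13 (13.3%) in the ChIP labelled HA, below the shares of 8.58% and 18% of all protein-coding genes. Of the 41 no longer than the longest member, 2 (4.88%) held a peak in each library, above the shares of 1.48% and 3.66% for all genes up to that length. No interval was computed for the lists' pooled shares, and 2 genes are too few to give a direction. The lists were not matched in length to all protein-coding genes. The median fold enrichment of the abundant messenger RNA list was 3.0 in the ChIP labelled WT and 3.08 in the ChIP labelled HA.

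Most like the members by fold enrichment, with a peak in the ChIP labelled WT and none in the ChIP labelled HA, were NGB, OR13C3 and ZFP36L2. They were picked out of 69 candidates as nearest to the members' median of 2.60, in the 1 library with peaks there. That their folds of 2.60 equalled it after rounding follows from this choice. The folds of the members themselves ran from 2.1 to 4.21. Their pileups were 11, 6 and 13 tags over backgrounds of 3.62, 1.70 and 4.39 tags.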

How the data were processed

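Per the labels, reads were processed by the authors with BWA 0.7.12 and MACS2 2.1.0. Per the file headers, MACS 2.1.0.20150420 was run on uniquely mapped reads without duplicates, for each ChIP against the input of the same label, with a p-value limit of 0.005, no model and extensions of 201 bp (HA) and 234 bp (WT). The deposited signal is the pileup at the summit, the deposited ratio is the fold enrichment, and each deposited p-value and q-value is given as its −log10. Inputs had 23134375 (HA) and 24567954 (WT) tags.

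Peak positions are deposited in bp. Backgrounds were computed from pileup and fold enrichment, and p-values recomputed from them were within 0.01 (−log10) for 100% of the 12662 HA and 6874 WT peaks. Genes were taken from RefSeq GRCh38.p14, whose contig names the files use, since the build is not given in the sources used here. Strand came from the promoter table, for 6 of the 8 genes. The members and lists were chosen with earlier results of these data known. Genes named beside the 8 are all list members with a peak, and the 3 nearest in fold enrichment. No test between conditions was made. The steps were tested on simulated data. Python 3.11.15, pandas 2.3.3, numpy 2.4.6 and scipy 1.17.1 were used.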

Additional observations from a re-analysis of the deposited data

How the results depend on the processing

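No paired analysis was possible because there was only 1 ChIP library for each label. The 5 members with a peak in the ChIP labelled WT became 1, FTL, with −log10 q limited to 5 or more, with the q-value under 0.05 and with the top 1000 peaks by −log10 q, and 0 with fold enrichment limited to 5 or more. In the ChIP labelled HA the number was 0 under all 8 alternatives. Under these 4 limits in the same order (−log10 q, q-value, top 1000, fold), the share of genes up to 9408 bp holding a peak was 0.0925%, 0.129%, 0.24% and 0.074% in the ChIP labelled WT and 0.037%, 0.296%, 0.555% and 0.0555% in the ChIP labelled HA. It was 1.94% and 5.03% with flanks of 1 kb on the genes, 3.51% and 8.55% with 5 kb, and 8.58% and 18% over all protein-coding genes. With a lower limit on length as well, it was 4.27% in the ChIP labelled HA and stayed within its interval in the ChIP labelled WT. With genes cut into 3 equal lengths, 2 of the 5 summits were in the middle one, where 4 were in the body. With the genome-wide background of the ChIP labelled HA, an alternative chosen after seeing the data, the expected tags reached the number needed at 3 of the 5 genes in place of 4. With the limit on a raised background at 5 times, also chosen after seeing the data, 1 of the 5 peaks passed in place of 4. A count of 11 to 30 tags limits the precision of each peak.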
